A study of Mus musculus with 12 samples.

Results

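The 36 genes described here belong to the integrated stress response and to the supply of amino acids. They were taken as a list of gene symbols. The list was chosen with earlier results of these data known, so its contrasts with all genes are not independent of the data. It covers 7 transcription factors and regulators, 4 feedback and effector genes, 8 amino acid transporters and 7 genes of serine and one-carbon synthesis. The rest are 6 other enzymes and a group of 4 with 3 secreted factors and 1 receptor. All 36 symbols were present among the 78275 gene IDs, and 35 of them were among the 15030 genes with enough counts to be tested. Cbs was not tested, and a second ID that carries the symbol Ddit3 was at 0 counts in all 12 libraries. The cells were C2C12, an established mouse myoblast line that fuses into myotubes when serum is lowered. All cells were grown in 10% fetal bovine serum and were transfected with an siRNA directed either at Zfp143 (knockdown) or at no gene (control). The uninduced groups were collected 24 hours later, and the induced groups spent 5 days in 1% horse serum, with fresh medium each day. Each of the 4 groups (uninduced control, uninduced knockdown, induced control, induced knockdown) held 3 libraries of polyadenylated RNA, all labelled as 1 batch. No label states whether libraries of one group are separate cultures. A p-value here measures only their spread, which may be technical.

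In the integrated stress response, kinases that sense stress phosphorylate the translation factor eIF2. General protein synthesis then falls, while the mRNA of the transcription factor ATF4 is translated more. ATF4, bound to DNA with a C/EBP partner, drives genes that import amino acids, make serine, asparagine and proline, and load tRNAs, and others that limit the response or, under lasting stress, favour cell death. Part of this regulation acts on protein, which RNA counts do not measure. Muscle cells with an active response are known to secrete FGF21 and GDF15 as circulating hormones. ZFP143, the targeted zinc finger protein, binds many promoters.

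The DNA element best known for ATF4 and its C/EBP partner was searched for in RefSeq promoter windows (GRCm38.p6, 250 bases before to 50 after each start site), as TGATGNAA on both strands. Windows were matched by symbol for 32 of the 36 genes. The 4 genes shown here both hold the element and were lower in uninduced knockdown cells, and capitals mark the match, which reads on the opposite strand. The Fgf21 window lies at chr7:45615491-45615740 (minus strand), Chac1 at chr2:119350992-119351241 (plus strand), Atf3 at chr1:191183334-191183583 (minus strand) and Slc1a4 at chr11:20332698-20332963 (minus strand). The first 3 end at the base before the start site, and that of Slc1a4 runs 16 bases past it because its match crosses the start. All 4 matches spell the same 8 letters, but stand at different distances from the start, with the first base 139 bases before it in Fgf21, 193 in Chac1, 110 in Atf3 and 4 in Slc1a4.
Fgf21: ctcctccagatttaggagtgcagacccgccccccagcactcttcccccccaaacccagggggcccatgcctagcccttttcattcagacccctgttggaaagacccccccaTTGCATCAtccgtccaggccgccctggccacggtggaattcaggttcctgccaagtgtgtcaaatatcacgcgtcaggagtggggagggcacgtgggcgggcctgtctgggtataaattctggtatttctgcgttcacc
Chac1: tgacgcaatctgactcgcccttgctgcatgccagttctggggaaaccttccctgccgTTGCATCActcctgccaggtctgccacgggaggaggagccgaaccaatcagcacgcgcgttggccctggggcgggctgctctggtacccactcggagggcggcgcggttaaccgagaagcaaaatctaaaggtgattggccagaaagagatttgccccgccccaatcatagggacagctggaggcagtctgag
Atf3: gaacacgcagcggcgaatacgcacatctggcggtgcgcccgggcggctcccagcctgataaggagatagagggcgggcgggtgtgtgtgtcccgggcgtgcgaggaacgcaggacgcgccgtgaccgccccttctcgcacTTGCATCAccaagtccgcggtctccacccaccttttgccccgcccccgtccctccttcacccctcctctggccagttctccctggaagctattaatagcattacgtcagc
Slc1a4: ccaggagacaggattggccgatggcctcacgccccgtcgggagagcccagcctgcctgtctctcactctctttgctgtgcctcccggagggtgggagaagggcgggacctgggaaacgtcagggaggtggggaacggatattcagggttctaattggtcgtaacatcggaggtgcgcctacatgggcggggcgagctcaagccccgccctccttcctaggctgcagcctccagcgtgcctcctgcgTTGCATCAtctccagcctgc
A match is a run of letters and was not tested as a binding site. At least 1 window with TGATGNAA was present for 11 of the 32 matched genes (34.4%), against 4.51% of all 27025 genes with a window. The list was chosen as genes of the response that ATF4 drives, so this share is no independent result. These were Asns, Atf3, Chac1, Fgf21, Nupr1, Pck2, Pycr1, Slc1a4, Slc7a11, Trib3 and Vldlr. Of the 16 matched genes that were lower in at least 1 of the 2 knockdown comparisons, 7 held the element, and of the other 16 it was 4. Of a pair of words known from ZNF143 sites, one shorter and the other longer than TGATGNAA, each was held by fewer of the listed genes: ACTACAA was in the windows of Asns, Shmt2 and Trib3 (9.38% of 32, against 3.78% of all genes) and CCCAGNATG in that of Asns (3.13%, against 2.33%). No word contains another, and all were searched on both strands. None of the 11 matched genes that fell in uninduced knockdown cells held either of the ZNF143 words.

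Library totals ran from 13520879 to 19068306 counts. Zfp143 measured 30.3 ± 8.58 CPM (SD, n = 3) in uninduced control and 11.4 ± 1.10 in uninduced knockdown cells, a log2 fold change of -1.41 (SE 0.18, adjusted p = 6.12e-05). After induction it measured 19.4 ± 0.221 and 17.1 ± 2.501 CPM, a log2 fold change of -0.18 (SE 0.18, adjusted p = 0.646), so a lower Zfp143 level was not detected on the day the induced cells were collected. CPM values are counts over the library total, scaled by the TMM method. The adjusted p is that of edgeR's quasi-likelihood test, adjusted by Benjamini-Hochberg over all 15030 genes, and a gene was called where it was under 0.05. Uninduced control replicate 3 stood apart, with 6.02% of its counts on mitochondrial genes against 1.95% to 3.95% in the other 11 libraries. Its TMM factor was 0.799, against 0.991 and 0.983 in replicates 1 and 2. By CPM, 12 of the 35 tested genes were highest and 20 lowest in replicate 3 among the 3 libraries of its group. The lowest total was that of induced knockdown replicate 1, where 1.95% were mitochondrial. The 6 myotube markers (Myog, Myh3, Acta1, Ckm, Mymk, Tnnt3) summed to 3.37 to 4.69 CPM in the uninduced libraries, 6712 to 8395 CPM in induced control and 2250 to 2861 CPM in induced knockdown. All 6 were called lower in induced knockdown than in induced control cells, against 5.77% of all genes. Of 5 myoblast markers (Myod1, Myf5, Cdh15, Des, Itga7), which summed to 479 to 592 CPM in the uninduced libraries, 1 was called lower in each knockdown comparison. Among all genes 17.1% were called lower in uninduced and 5.77% in induced knockdown cells, so 1 of 5 is near the uninduced share. The myoblast markers summed to 2024 to 2502 CPM in induced control and 1388 to 1842.5 CPM in induced knockdown. With induction under control siRNA 4 of the 5 were called higher and 1 lower, against 33.2% and 30.9% of all genes. Of the other cell types looked for, the 4 adipocyte markers reached 0.210 CPM in sum and the 4 endothelial markers 5.32, and the macrophage gene Adgre1 was at 0 in every library. The 5 epithelial and neuronal markers summed to 7.35 to 10.8 CPM in the uninduced and 0.150 to 0.446 CPM in the induced libraries, nearly all from the neuronal tubulin Tubb3, which was called lower with induction under control siRNA (log2 fold change -5.38), while Epcam, Krt5 and Snap25 were at 0 in every library. The 4 macrophage and leukocyte markers summed to 1.21 to 3.10 CPM in uninduced control and 8.21 to 10.3 CPM in uninduced knockdown libraries, nearly all from Csf1r and Cd68. Both were called higher in uninduced knockdown cells, against 15.4% of all genes. The part of these markers in the results below was not tested. In bulk RNA, fewer cells of a type and less RNA per cell cannot be told apart.

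**Figure D1:**
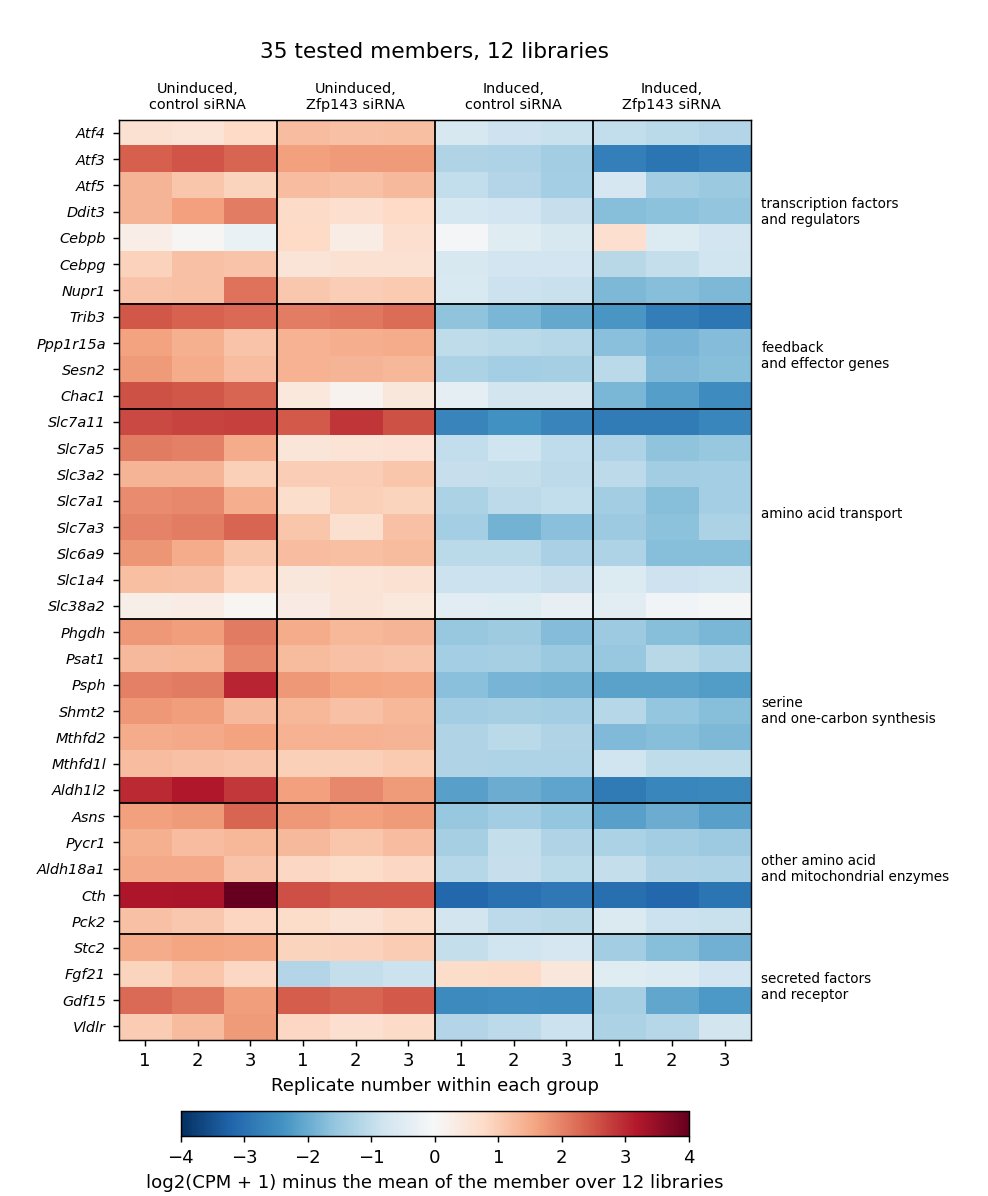
Each row is 1 of the 35 tested genes and each column 1 of the 12 libraries, 3 per group, and the colour is log2(CPM + 1) minus the gene's mean over all libraries. Nearly all rows are above their mean in the 6 uninduced and below it in the 6 induced libraries, with Fgf21 and Cebpb the clearest exceptions.

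The levels differed widely between genes. On the deposited TPM scale, which is per transcript length, Slc3a2 stood highest in uninduced control cells with 879 ± 307 TPM (SD, n = 3), ahead of Atf4 with 763 ± 114, Phgdh with 652 ± 76.03, Ddit3 with 635 ± 57.4 and Nupr1 with 597 ± 70.5. These 5 neighbours did not differ beyond their spread. At the low end were Slc7a11 with 24.7 ± 5.30 TPM, Stc2 with 19.6 ± 4.49, Slc7a3 with 13.5 ± 1.76 and Vldlr with 1.44 ± 0.134. After induction with control siRNA, Atf4 led with 387 ± 19.6 TPM, followed by Cebpb with 317 ± 35.5, Slc38a2 with 267 ± 16.9 and Slc3a2 with 253 ± 4.10. Cebpb and Slc38a2, in the middle of the order before induction, were thus among the highest after it. The summed CPM of all the listed genes was 13965 to 14081 in uninduced control libraries, 11023 to 11212 in uninduced knockdown, 2509 to 2713 in induced control and 2282 to 2499 in induced knockdown. The uninduced groups did not overlap in this sum, nor did the induced groups, though the induced gap was small. As a share of library counts, without the TMM scaling, the induced groups overlapped, at 0.263% to 0.282% with control siRNA and 0.254% to 0.278% with the Zfp143 siRNA.

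**Figure D2:**
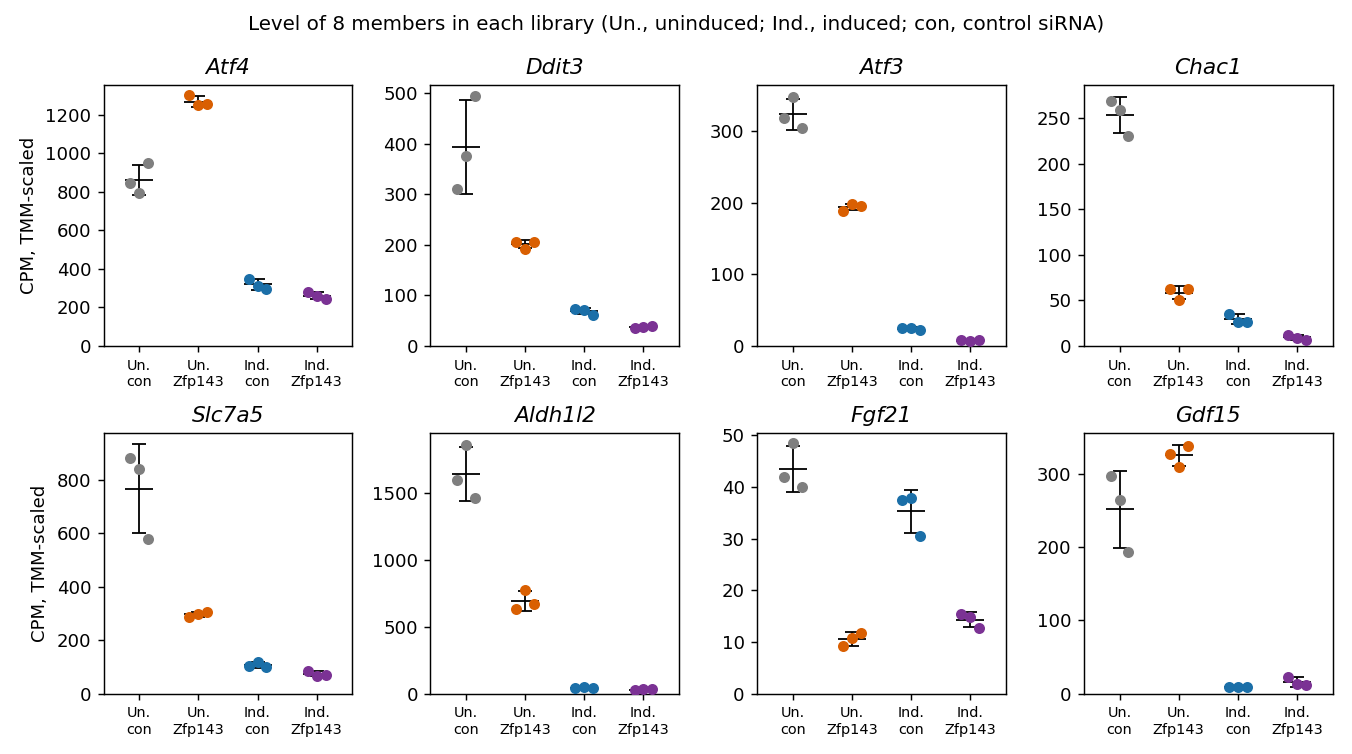
CPM in each library for 8 genes, on axes that start at 0, with points for the 3 libraries of a group and the black line and bar for their mean and SD. With control siRNA Fgf21 lies at 30.5 to 37.9 CPM after induction against 40.0 to 48.5 before, while the other 7 fall further, and Atf4 alone of the 8 is called higher in uninduced knockdown cells.

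Induction lowered nearly the whole list. With control siRNA, 33 of the 35 genes fell, where 30.9% of all tested genes fell. EdgeR called 0 of the 35 higher, also at an unadjusted p under 0.05 and by DESeq2 and limma-voom, where 33.2% of all genes rose. The median log2 fold change of the list was -2.73, against 0.03 over all genes, and 32 of the 33 fell by more than 2-fold. With the Zfp143 siRNA, 33 of 35 again fell (30.1% of all genes) and 1 rose, Fgf21 (36% of all genes), with a median of -2.74 against 0.10 over all genes. The same 33 genes fell with either siRNA. Fgf21 and Cebpb were the exceptions with control siRNA. The uninduced and induced cells differ in medium, serum and days since transfection together, so these cannot be told apart. The comparisons of siRNA and of induction share the control libraries of each condition.

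**Figure D3:**
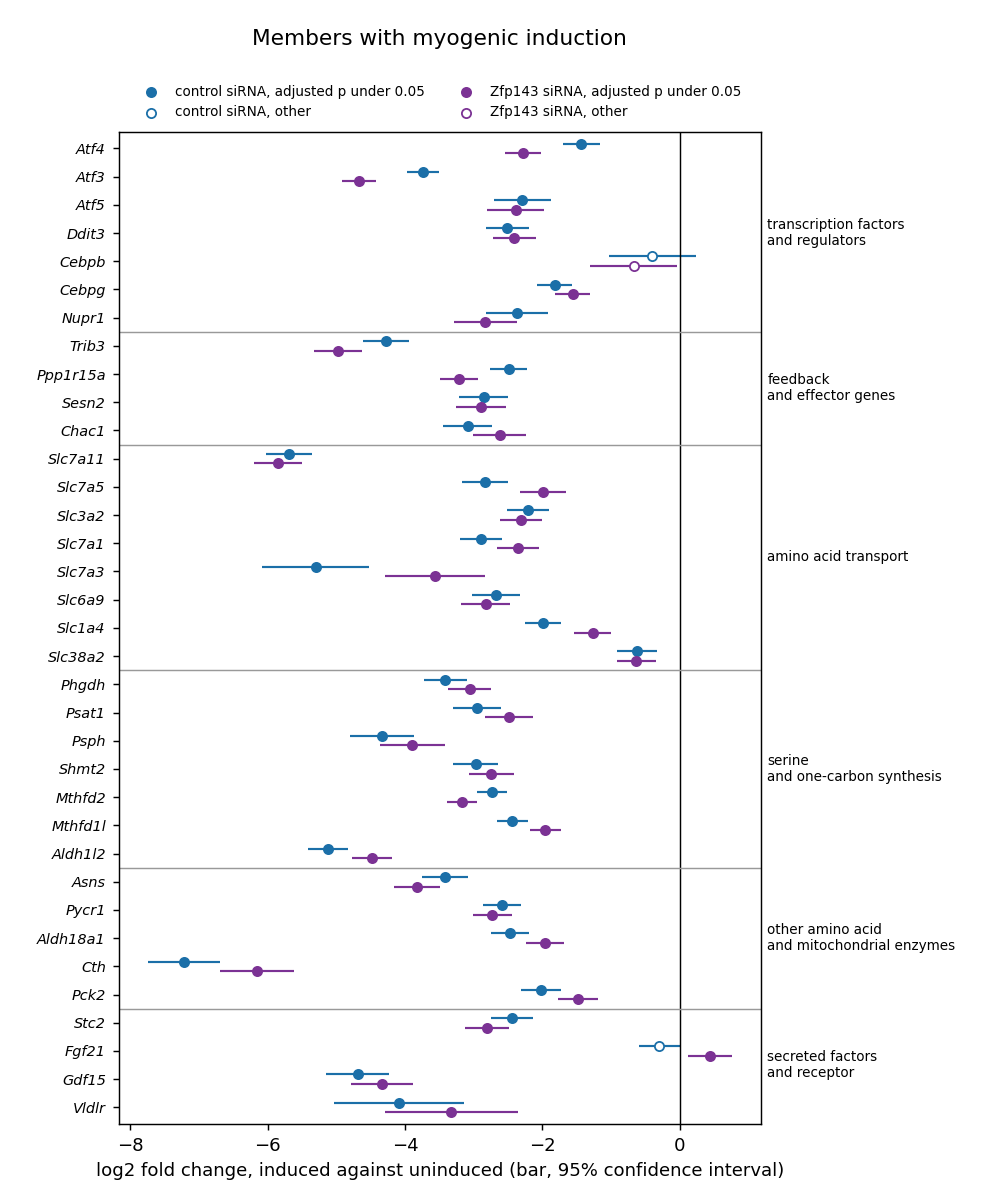
Points are the log2 fold change of induced against uninduced cells for each of the 35 tested genes, with control siRNA and with the Zfp143 siRNA, bars are 95% confidence intervals and filled points have an adjusted p under 0.05. The points of 33 genes are filled and left of 0 with either siRNA, from Slc38a2 near 0 to Cth at -7.22.

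The Zfp143 siRNA lowered part of the list in growing cells. In uninduced cells 15 of the 35 genes fell, where 17.1% of all genes fell, and 1 rose, Atf4, where 15.4% of all genes rose. The list's median log2 fold change was -0.36, against -0.04 over all genes, and 6 of the 15 fell by more than 2-fold. In induced cells 11 of 35 fell, against 5.77% of all genes. EdgeR called 0 higher there, against 3.73% of all genes, with 2 at an unadjusted p under 0.05, 2 by DESeq2 and 0 by limma-voom. Here the median was -0.25, against -0.03 over all genes. The summed myotube markers of the induced knockdown libraries were lower too, at 2250 to 2861 against 6712 to 8395 CPM, and their part in these calls was not tested. Aldh1l2, Atf3, Chac1, Ddit3, Fgf21 and Stc2 were called lower in both conditions. Another 9 were called lower in uninduced cells (Aldh18a1, Cebpg, Cth, Phgdh, Psph, Slc1a4, Slc7a1, Slc7a3, Slc7a5) and 5 in induced cells (Asns, Mthfd2, Nupr1, Ppp1r15a, Trib3), and 14 in neither. The difference between the siRNA effects in induced and uninduced cells was tested by itself, and 12 genes passed: 7 with a higher and 5 with a lower log2 fold change after induction, where 10.6% and 11.8% of all genes did so. With scaling to library size alone the split was 7 higher and 2 lower, since Mthfd2 (adjusted p = 0.126), Trib3 (0.101) and Ppp1r15a (0.0552) no longer passed. Without uninduced control replicate 3, 17 genes passed that test, with Aldh18a1, Asns, Nupr1, Pck2 and Slc7a1 added. Without uninduced knockdown replicate 1, 6 passed. Over all genes 22.5% passed with all libraries, 30.6% without that control library and 16.2% without that knockdown library. Atf3, Atf4, Slc1a4 and Slc7a5 passed the test of the difference in all 20 alternative fits run. Scaling to library size alone moved the share of higher calls among all genes from 39.2% to 51.9% for the siRNA in induced cells and from 54.4% to 66.2% for induction with the Zfp143 siRNA. The median of all genes moved with it, to 0.21 for induction with control siRNA and 0.35 with the Zfp143 siRNA.

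**Figure D4:**
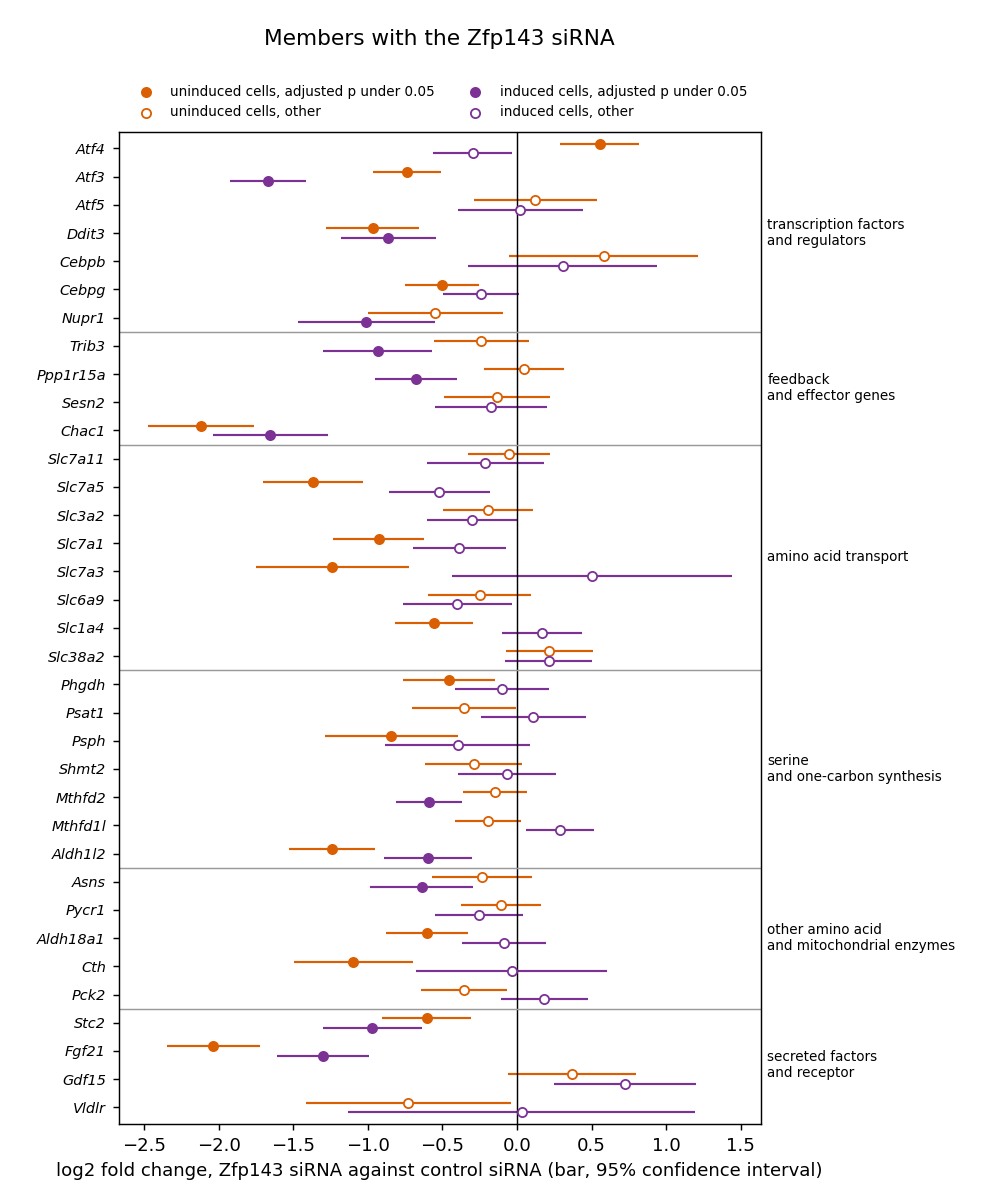
Points are the log2 fold change with the Zfp143 siRNA for each of the 35 tested genes in uninduced and induced cells, bars are 95% confidence intervals and filled points have an adjusted p under 0.05. Chac1 and Fgf21 lie farthest left in uninduced cells, at -2.12 and -2.03, and Atf4 is the 1 gene filled to the right of 0.

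Among the 7 transcription factors and regulators, the siRNA raised Atf4 and lowered Atf3, Ddit3 and Cebpg in uninduced cells, and lowered Atf3, Ddit3 and Nupr1 in induced cells. Induction with control siRNA lowered 6 of the 7, against 30.9% of all genes. With the siRNA, 15.4% of all genes rose and 17.1% fell in uninduced cells, and 5.77% fell in induced cells. Atf4, the central factor of the response, measured 846, 795 and 948 CPM with control siRNA and 1302, 1249 and 1254 CPM with the Zfp143 siRNA in uninduced cells. Atf4 values after induction were 350.1, 310.5 and 298 CPM with control siRNA and 279, 258 and 243 CPM with the Zfp143 siRNA. The uninduced knockdown libraries all lay above the uninduced controls, while the induced knockdown libraries all lay below the induced controls. Atf4 had a log2 fold change with the siRNA of 0.56 (SE 0.12, adjusted p = 0.00345) in uninduced and -0.30 (SE 0.12, adjusted p = 0.184) in induced cells. Atf4 changed with induction under control siRNA by -1.43 (SE 0.12, adjusted p = 1.17e-07) on the log2 scale. The siRNA effects differed between the conditions by -0.85 (SE 0.18, adjusted p = 0.00312) on the log2 scale. The higher Atf4 level in uninduced knockdown cells was called in every alternative fit. In induced cells Atf4 was called lower by DESeq2 (adjusted p = 0.0454). It was also called lower there without uninduced control replicate 3 and induced knockdown replicate 1 together (0.00931), and in 19 of the 21 alternatives it was not called. Atf3, a stress-induced factor of the same family that acts downstream of ATF4, measured 318, 347 and 305 CPM with control siRNA and 189, 198 and 196 CPM with the Zfp143 siRNA in uninduced cells. Atf3 values after induction were 25.3, 24.98 and 22.2 CPM with control siRNA and 8.103, 6.98 and 7.76 CPM with the Zfp143 siRNA. The knockdown libraries lay below the controls without overlap in both conditions. Atf3 had a log2 fold change with the siRNA of -0.74 (SE 0.11, adjusted p = 0.000148) in uninduced and -1.67 (SE 0.12, adjusted p = 8.82e-07) in induced cells. Atf3 changed with induction under control siRNA by -3.74 (SE 0.11, adjusted p = 1.48e-12) on the log2 scale. The siRNA lowered Atf3 to 60% of control in uninduced and to 31.5% in induced cells, a difference of -0.93 (SE 0.16, adjusted p = 0.000818) on the log2 scale. Atf4 and Atf3 thus moved in opposite directions in uninduced cells.

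Ddit3, which encodes the pro-apoptotic factor CHOP, measured 311, 376 and 494 CPM with control siRNA and 206, 192 and 207 CPM with the Zfp143 siRNA in uninduced cells. Ddit3 values after induction were 73.9, 70.6 and 62.3 CPM with control siRNA and 36.5, 37.5 and 39.6 CPM with the Zfp143 siRNA. Every knockdown library lay below every control library of its condition, and uninduced control replicate 3 was the highest of all by CPM. By TPM it was not, as the uninduced controls measured 602, 702 and 603. Ddit3 had a log2 fold change with the siRNA of -0.97 (SE 0.15, adjusted p = 0.000215) in uninduced and -0.86 (SE 0.15, adjusted p = 0.00134) in induced cells. The difference between these effects was 0.10 (adjusted p = 0.776), and induction with control siRNA changed Ddit3 by -2.51 (SE 0.15, adjusted p = 1.98e-09) on the log2 scale. Nupr1, a small nuclear stress protein, measured 281, 289 and 575 CPM with control siRNA and 267, 252 and 264 CPM with the Zfp143 siRNA in uninduced cells. Nupr1 values after induction were 83.3, 70.04 and 67.7 CPM with control siRNA and 35.4, 38.4 and 36.03 CPM with the Zfp143 siRNA. In uninduced cells 1 control library, replicate 3, stood far above the others in CPM, though less so in TPM (573, 542 and 677). The knockdown libraries lay below all controls in both conditions. Nupr1 had a log2 fold change with the siRNA of -0.55 (SE 0.21, adjusted p = 0.0603) in uninduced and -1.01 (SE 0.22, adjusted p = 0.00675) in induced cells. Nupr1 was also called lower in uninduced knockdown cells without uninduced control replicate 1 (adjusted p = 0.0163) or replicate 2 (0.0265). With all libraries it was called lower there with no count filter (0.00277) and with scaling to library size alone (0.0399). The edgeR fit with the count filter and TMM scaling did not call it. Without the high replicate 3, the log2 fold change of Nupr1 there was -0.12 (adjusted p = 0.404). Nupr1 changed with induction under control siRNA by -2.37 (SE 0.21, adjusted p = 2.42e-07) on the log2 scale. Cebpg, a C/EBP factor that pairs with ATF4, fell with the siRNA in uninduced cells by 0.50 on the log2 scale (adjusted p = 0.0045) and by induction with a log2 fold change of -1.82. Atf5, a close relative of Atf4, had siRNA values of 0.12 and 0.02 and fell with induction (-2.29). Cebpb, another C/EBP factor, passed the test in none of the 5 comparisons. Its induction value with the Zfp143 siRNA was -0.67 (SE 0.30, adjusted p = 0.0579), and it was called lower there without induced knockdown replicate 1 (adjusted p = 0.000116) or uninduced knockdown replicate 2 (0.0469). With all libraries it was also called lower by DESeq2 (0.0327), limma-voom (0.0251) and with RLE size factors (0.0499). A replicate block (0.00367) and the length offset (-1.21, 9.81e-07) called it lower too. With the length offset Cebpb was called higher in uninduced knockdown cells (0.00125), and its siRNA effects differed (-0.98, 0.00122). Without induced knockdown replicate 1, Cebpb was also called higher in uninduced knockdown cells (0.0206). That library measured 238 CPM, against 101 and 87.6 in its group. On the TPM scale the induced knockdown libraries measured 258, 307 and 252.

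Of the 4 feedback and effector genes, Chac1 fell in both conditions and Trib3 and Ppp1r15a fell with the siRNA in induced cells, and all 4 fell with induction. The shares of all genes that fell were 17.1% in uninduced knockdown, 5.77% in induced knockdown and 30.9% with induction under control siRNA. Chac1, an enzyme that degrades glutathione, measured 269, 259 and 231 CPM with control siRNA and 61.98, 50.2 and 62.7 CPM with the Zfp143 siRNA in uninduced cells. Chac1 values after induction were 35.7, 26.7 and 26.8 CPM with control siRNA and 12.2, 9.21 and 7.16 CPM with the Zfp143 siRNA. The knockdown libraries were below all controls in both conditions, and the uninduced knockdown values lay between the uninduced and induced controls. Chac1 had a log2 fold change with the siRNA of -2.12 (SE 0.17, adjusted p = 8.2e-07) in uninduced and -1.65 (SE 0.18, adjusted p = 2.49e-05) in induced cells. The siRNA left 23% of the control level in uninduced cells, the smallest share among the 35 genes, and 31.8% in induced cells. Chac1 changed with induction under control siRNA by -3.09 (SE 0.17, adjusted p = 1.16e-09) on the log2 scale. Trib3, a pseudokinase that restrains ATF4 and CHOP, measured 264, 242 and 228 CPM with control siRNA and 196, 204 and 222 CPM with the Zfp143 siRNA in uninduced cells. Trib3 values after induction were 14.8, 12.4 and 10.5 CPM with control siRNA and 8.44, 6.04 and 5.404 CPM with the Zfp143 siRNA. By CPM the siRNA groups did not overlap in either condition, though the gap was small before induction. In TPM the uninduced groups overlapped (225, 205 and 129 against 134, 158 and 160). Trib3 had a log2 fold change with the siRNA of -0.24 (SE 0.15, adjusted p = 0.241) in uninduced and -0.93 (SE 0.17, adjusted p = 0.00204) in induced cells. Trib3 changed with induction under control siRNA by -4.28 (SE 0.16, adjusted p = 1.82e-11) on the log2 scale. Ppp1r15a, the phosphatase subunit GADD34, which helps remove the phosphate from eIF2, measured 638, 565 and 467 CPM with control siRNA and 551, 582 and 594 CPM with the Zfp143 siRNA in uninduced cells. Ppp1r15a values after induction were 103, 99.7 and 94.6 CPM with control siRNA and 66.02, 57.9 and 62.1 CPM with the Zfp143 siRNA. Its uninduced groups overlapped, and its induced groups did not. Ppp1r15a had a log2 fold change with the siRNA of 0.05 (SE 0.13, adjusted p = 0.812) in uninduced and -0.68 (SE 0.13, adjusted p = 0.00262) in induced cells. Ppp1r15a changed with induction under control siRNA by -2.49 (SE 0.13, adjusted p = 4.24e-10) on the log2 scale. The difference between siRNA effects was -0.69 (SE 0.23, adjusted p = 0.0392) for Trib3 and -0.73 (SE 0.18, adjusted p = 0.00988) for Ppp1r15a. Neither passed with scaling to library size alone, as given above. The Trib3 difference was also not called without any 1 of 8 libraries: induced control 1 (adjusted p = 0.124) or 2 (0.0754), uninduced control 2 (0.0770), induced knockdown 2 (0.1002) or 3 (0.110), or uninduced knockdown 1 (0.0617), 2 (0.0619) or 3 (0.0992). Sesn2, a leucine sensor that restrains mTORC1, had siRNA values of -0.14 and -0.17, neither called, and fell with induction (-2.86).

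The 8 amino acid transporters all fell with induction, by a median log2 fold change of -2.76, where 30.9% of all genes fell. In uninduced cells the siRNA lowered Slc7a5, Slc7a3, Slc7a1 and Slc1a4, where 17.1% of all genes fell. In induced cells edgeR called 0 of the 8, where 9.49% of all genes were called, so 0 is near that share. There 3 were lower at an unadjusted p under 0.05 and 1 was lower, Slc7a5, by DESeq2 and by limma-voom. Slc7a5, the light chain of the large neutral amino acid carrier LAT1, measured 883, 843 and 577 CPM with control siRNA and 286, 299.9 and 306 CPM with the Zfp143 siRNA in uninduced cells. Slc7a5 values after induction were 104, 119 and 101 CPM with control siRNA and 86.5, 66.98 and 71.7 CPM with the Zfp143 siRNA. Both pairs of groups were apart, and uninduced control replicate 3 was the lowest of its group. In TPM the uninduced controls measured 414, 392 and 174. Slc7a5 had a log2 fold change with the siRNA of -1.37 (SE 0.16, adjusted p = 2.11e-05) in uninduced and -0.52 (SE 0.16, adjusted p = 0.053) in induced cells. Slc7a5 changed with induction under control siRNA by -2.83 (SE 0.16, adjusted p = 1.29e-09) on the log2 scale. In induced cells Slc7a5 was called lower without uninduced control replicate 1 (adjusted p = 0.0391) or 3 (0.00334) or without induced knockdown replicate 1 (0.0287), and by DESeq2 (0.0158). Slc7a3, a carrier of cationic amino acids, measured 17.01, 17.8 and 21.9 CPM with control siRNA and 8.79, 6.02 and 9.15 CPM with the Zfp143 siRNA in uninduced cells. Slc7a3 values after induction were 0.781, 0.211 and 0.42 CPM with control siRNA and 0.664, 0.446 and 0.901 CPM with the Zfp143 siRNA. The uninduced groups were apart, and the induced libraries, with 4 to 18 counts each, overlapped. Slc7a3 had a log2 fold change with the siRNA of -1.24 (SE 0.24, adjusted p = 0.00143) in uninduced and 0.50 (SE 0.44, adjusted p = 0.59) in induced cells. Slc7a3 changed with induction under control siRNA by -5.30 (SE 0.37, adjusted p = 2.15e-09) on the log2 scale. Slc1a4, a carrier of neutral amino acids that include serine, measured 193, 186 and 150.0 CPM with control siRNA and 112, 121 and 126 CPM with the Zfp143 siRNA in uninduced cells. Slc1a4 values after induction were 45.02, 45.2 and 42.7 CPM with control siRNA and 56.2, 46.1 and 46.8 CPM with the Zfp143 siRNA. By CPM the uninduced knockdown libraries lay below all uninduced controls, and the induced knockdown libraries lay above all induced controls. In TPM the uninduced groups overlapped (79.5, 76.7 and 40.2 against 36.9, 43.0 and 42.7). Slc1a4 had a log2 fold change with the siRNA of -0.56 (SE 0.12, adjusted p = 0.00322) in uninduced and 0.17 (SE 0.13, adjusted p = 0.525) in induced cells. Slc1a4 changed with induction under control siRNA by -1.99 (SE 0.12, adjusted p = 3.21e-09) on the log2 scale.

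The siRNA effects on these 3 transporters differed between the conditions, by 0.85 (SE 0.22, adjusted p = 0.0137) for Slc7a5, 1.74 (SE 0.50, adjusted p = 0.0207) for Slc7a3 and 0.72 (SE 0.18, adjusted p = 0.00857) for Slc1a4. The Slc7a3 difference was not called without induced control replicate 2 (adjusted p = 0.0590) or 3 (0.0524) or without induced knockdown replicate 3 (0.0916). Slc7a11, the cystine carrier xCT, which feeds glutathione synthesis, measured 137, 143 and 149 CPM with control siRNA and 121, 163 and 129 CPM with the Zfp143 siRNA in uninduced cells. Slc7a11 values after induction were 2.55, 3.16 and 2.57 CPM with control siRNA and 2.19, 2.23 and 2.702 CPM with the Zfp143 siRNA. Its siRNA groups overlapped before induction and after it, and every induced library was far below every uninduced one. Slc7a11 had a log2 fold change with the siRNA of -0.05 (SE 0.13, adjusted p = 0.788) in uninduced and -0.21 (SE 0.18, adjusted p = 0.594) in induced cells. Slc7a11 changed with induction under control siRNA by -5.69 (SE 0.16, adjusted p = 6.34e-13) on the log2 scale. Slc7a1, another cationic carrier, fell with the siRNA in uninduced cells (-0.93, SE 0.14, adjusted p = 0.000252) and had -0.39 in induced cells, where it was called without uninduced control replicate 3 (adjusted p = 0.0406). Slc3a2, the heavy chain shared by LAT1 and xCT, had siRNA values of -0.19 and -0.30, and Slc6a9, a glycine carrier, -0.25 and -0.40. Without uninduced control replicate 3, in which both were lowest, they were called lower in uninduced knockdown cells (adjusted p = 0.0358 and 0.0344), and Slc6a9 was called lower in induced knockdown cells without induced knockdown replicate 1 (0.0435). Slc38a2, a carrier of small neutral amino acids, changed least of the 8 with induction (-0.63, SE 0.14, adjusted p = 0.00095) and had siRNA values of 0.22 and 0.21.

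All 7 genes of serine and one-carbon synthesis fell with induction, each by more than 2-fold, against 30.9% of all genes that fell. The siRNA lowered Aldh1l2, Psph and Phgdh in uninduced and Aldh1l2 and Mthfd2 in induced cells, where 17.1% and 5.77% of all genes fell. Aldh1l2, a mitochondrial enzyme of folate metabolism, measured 1597, 1859 and 1461 CPM with control siRNA and 634, 777 and 669 CPM with the Zfp143 siRNA in uninduced cells. Aldh1l2 values after induction were 44.5, 50.1 and 46.1 CPM with control siRNA and 27.8, 32.4 and 32.8 CPM with the Zfp143 siRNA. The knockdown libraries were below all controls in both conditions. Aldh1l2 had a log2 fold change with the siRNA of -1.24 (SE 0.14, adjusted p = 1.28e-05) in uninduced and -0.60 (SE 0.14, adjusted p = 0.0119) in induced cells. Aldh1l2 changed with induction under control siRNA by -5.13 (SE 0.14, adjusted p = 1.18e-12) on the log2 scale. The call in induced cells was lost without induced control replicate 2 (adjusted p = 0.0711) and with scaling to library size alone (0.0660). Psph, the phosphatase that completes serine synthesis, measured 257, 271 and 529 CPM with control siRNA and 213, 191 and 185 CPM with the Zfp143 siRNA in uninduced cells. Psph values after induction were 19.2, 16.9 and 16.2 CPM with control siRNA and 13.5, 13.6 and 12.6 CPM with the Zfp143 siRNA. Its knockdown libraries lay below the controls in both conditions, and uninduced control replicate 3 was far above the other 2 in CPM. In TPM these controls measured 247, 271 and 351. Psph had a log2 fold change with the siRNA of -0.84 (SE 0.21, adjusted p = 0.00701) in uninduced and -0.40 (SE 0.23, adjusted p = 0.364) in induced cells. Psph changed with induction under control siRNA by -4.34 (SE 0.22, adjusted p = 6.69e-10) on the log2 scale. Without uninduced control replicate 3, the Psph value in uninduced cells was -0.42 and still called (adjusted p = 0.00619), and Psph was also called lower in induced cells (0.0229). Mthfd2, a mitochondrial folate enzyme that is high in growing cells, measured 337, 350.3 and 368 CPM with control siRNA and 319, 319 and 313 CPM with the Zfp143 siRNA in uninduced cells. Mthfd2 values after induction were 51.6, 56.2 and 51.4 CPM with control siRNA and 34.7, 36.7 and 34.4 CPM with the Zfp143 siRNA. By CPM the groups did not overlap in either condition, with a narrow gap before induction. In TPM the uninduced groups overlapped (257, 276 and 187 against 193, 213 and 201). Mthfd2 had a log2 fold change with the siRNA of -0.15 (SE 0.10, adjusted p = 0.282) in uninduced and -0.59 (SE 0.10, adjusted p = 0.00154) in induced cells. Mthfd2 changed with induction under control siRNA by -2.73 (SE 0.10, adjusted p = 1.39e-11) on the log2 scale.

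Mthfd1l, the enzyme that releases formate in mitochondria, measured 199, 188 and 184 CPM with control siRNA and 163, 162 and 174 CPM with the Zfp143 siRNA in uninduced cells. Mthfd1l values after induction were 35.8, 34.7 and 34.6 CPM with control siRNA and 47.3, 40.3 and 40.9 CPM with the Zfp143 siRNA. By CPM its knockdown libraries lay below the controls before induction and above them after it. In TPM the uninduced groups overlapped (77.6, 75.0 and 47.7 against 51.0, 55.5 and 57.5). Mthfd1l had a log2 fold change with the siRNA of -0.19 (SE 0.10, adjusted p = 0.176) in uninduced and 0.29 (SE 0.11, adjusted p = 0.12) in induced cells. Mthfd1l changed with induction under control siRNA by -2.44 (SE 0.11, adjusted p = 5.83e-11) on the log2 scale. The siRNA effects differed by 0.64 (SE 0.19, adjusted p = 0.0272) for Aldh1l2, 0.48 (SE 0.15, adjusted p = 0.0307) for Mthfd1l and -0.44 (SE 0.15, adjusted p = 0.0407) for Mthfd2. Leaving out 1 library at a time gave adjusted p-values up to 0.0790, 0.0750 and 0.114, and the calls were lost in 7, 8 and 10 of the 12 such fits. Among these fits the Aldh1l2 call held only without uninduced control replicate 1 or 3, uninduced knockdown replicate 2, induced control replicate 2 or induced knockdown replicate 1. The Mthfd1l call held only without uninduced control replicate 3 or any 1 induced knockdown library, and the Mthfd2 call only without uninduced control replicate 3 or induced knockdown replicate 1. With no filter on low counts, the Mthfd1l (adjusted p = 0.144) and Mthfd2 (0.271) differences were not called. Phgdh, the first enzyme of serine synthesis, fell with the siRNA in uninduced cells (-0.46, SE 0.15, adjusted p = 0.0266). This call was lost without uninduced control replicate 3 (adjusted p = 0.0534) or uninduced knockdown replicate 1 (0.0536), 2 (0.0779) or 3 (0.0870), and with only the groups compared in the fit (0.0686). Psat1, the enzyme between Phgdh and Psph, had -0.36 and 0.11, and Shmt2, which turns serine into glycine in mitochondria, -0.29 and -0.07. Without uninduced control replicate 3, Shmt2 was called lower in uninduced knockdown cells (adjusted p = 0.0245).

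Among the other enzymes, 5 of the 6 were tested and all 5 fell with induction, against 30.9% of all genes. The siRNA lowered Cth and Aldh18a1 in uninduced and Asns in induced cells, where 17.1% and 5.77% of all genes fell. Cth, which releases cysteine from cystathionine, measured 206, 214 and 378 CPM with control siRNA and 131, 122 and 121 CPM with the Zfp143 siRNA in uninduced cells. Cth values after induction were 1.51, 1.79 and 2.05 CPM with control siRNA and 1.73, 1.53 and 1.95 CPM with the Zfp143 siRNA. The uninduced groups were apart, with control replicate 3 the highest, and the induced groups overlapped at a level of a few CPM. In TPM the uninduced controls measured 216, 237 and 267. Cth had a log2 fold change with the siRNA of -1.10 (SE 0.19, adjusted p = 0.00054) in uninduced and -0.04 (SE 0.30, adjusted p = 0.969) in induced cells. Cth changed with induction under control siRNA by -7.22 (SE 0.25, adjusted p = 5.28e-12) on the log2 scale. Cth had the largest induction change of the 35 genes, with 0.672% of the uninduced level left. Its siRNA effects differed by 1.06 (SE 0.35, adjusted p = 0.0428), which did not pass without any 1 of 9 libraries, the induced ones and the uninduced knockdown ones (adjusted p 0.0520 to 0.111). With all libraries it did not pass with RLE size factors (0.0508) or by limma-voom (0.137). Asns, asparagine synthetase, measured 462, 476 and 731 CPM with control siRNA and 483, 460.4 and 474 CPM with the Zfp143 siRNA in uninduced cells. Asns values after induction were 50.4, 55.5 and 49.6 CPM with control siRNA and 31.7, 36.3 and 31.9 CPM with the Zfp143 siRNA. Its uninduced groups overlapped in CPM, but not in TPM (371, 397 and 392 against 311, 321 and 321). Its induced knockdown libraries lay below all induced controls. Asns had a log2 fold change with the siRNA of -0.24 (SE 0.16, adjusted p = 0.271) in uninduced and -0.64 (SE 0.16, adjusted p = 0.0191) in induced cells. Asns changed with induction under control siRNA by -3.42 (SE 0.16, adjusted p = 2.12e-10) on the log2 scale. The call in induced cells was lost without induced control replicate 1 (adjusted p = 0.0545) or 2 (0.0936) or induced knockdown replicate 1 (0.0563) or 3 (0.0748).

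Aldh18a1, the first enzyme of proline synthesis from glutamate, measured 263, 260.0 and 199 CPM with control siRNA and 160.4, 152 and 163 CPM with the Zfp143 siRNA in uninduced cells. Aldh18a1 values after induction were 40.8, 46.9 and 42.5 CPM with control siRNA and 46.2, 38.9 and 37.6 CPM with the Zfp143 siRNA. By CPM the uninduced groups were apart, and the induced groups overlapped. In TPM the uninduced groups overlapped too (104, 105 and 51.7 against 50.9, 53.0 and 54.5). Aldh18a1 had a log2 fold change with the siRNA of -0.60 (SE 0.13, adjusted p = 0.00267) in uninduced and -0.09 (SE 0.13, adjusted p = 0.788) in induced cells. Aldh18a1 changed with induction under control siRNA by -2.47 (SE 0.13, adjusted p = 5.62e-10) on the log2 scale. Pycr1, which completes proline synthesis, had siRNA values of -0.11 and -0.25, and Pck2, the mitochondrial form of the enzyme that makes phosphoenolpyruvate, -0.35 and 0.18. Pck2 was called lower in uninduced knockdown cells without uninduced control replicate 3 (adjusted p = 0.0146) or induced knockdown replicate 1 (0.0352). Cbs, which makes the substrate of Cth, had 0, 0 and 1 counts with control siRNA and 1, 3 and 1 with the Zfp143 siRNA in uninduced cells. Cbs counts after induction were 9, 8 and 10 with control siRNA and 5, 8 and 13 with the Zfp143 siRNA. No test was made at these counts.

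Among the 3 secreted factors and the receptor, the siRNA lowered Fgf21 and Stc2 in both conditions, and induction with control siRNA lowered Stc2, Gdf15 and Vldlr. The shares of all genes that fell were 17.1% in uninduced knockdown, 5.77% in induced knockdown and 30.9% with this induction. Fgf21, a hormone released under metabolic and mitochondrial stress, measured 41.8, 48.5 and 40.01 CPM with control siRNA and 9.19, 10.9 and 11.8 CPM with the Zfp143 siRNA in uninduced cells. Fgf21 values after induction were 37.4, 37.9 and 30.5 CPM with control siRNA and 15.4, 14.9 and 12.7 CPM with the Zfp143 siRNA. Knockdown libraries lay well below controls in both conditions, and by CPM the induced controls lay a little below the uninduced controls without overlap. In TPM the controls overlapped, at 89.8, 104 and 56.0 before induction and 92.2, 92.8 and 83.9 after it. Fgf21 had a log2 fold change with the siRNA of -2.03 (SE 0.15, adjusted p = 2.69e-07) in uninduced and -1.30 (SE 0.14, adjusted p = 2.63e-05) in induced cells. With control siRNA the induction value was -0.30 (SE 0.14, adjusted p = 0.0718), which did not pass, and it was called lower without uninduced control replicate 3 (adjusted p = 0.0327). With the Zfp143 siRNA Fgf21 rose, 0.43 (SE 0.15, adjusted p = 0.0187), which no longer passed without uninduced knockdown replicate 1 (0.0937) or induced knockdown replicate 2 (0.0563). With scaling to library size alone that rise was 0.68 (adjusted p = 0.00247). The siRNA effects differed by 0.73 (SE 0.20, adjusted p = 0.0182), which no longer passed when uninduced control replicate 2 (0.0526) or uninduced knockdown replicate 1 (0.0581) was left out. Stc2, stanniocalcin, a secreted glycoprotein, measured 57.7, 61.5 and 60.6 CPM with control siRNA and 37.6, 38.8 and 41.6 CPM with the Zfp143 siRNA in uninduced cells. Stc2 values after induction were 9.94, 11.02 and 12.1 CPM with control siRNA and 7.04, 5.45 and 4.504 CPM with the Zfp143 siRNA. The knockdown libraries were below the controls in both conditions. Stc2 had a log2 fold change with the siRNA of -0.61 (SE 0.14, adjusted p = 0.0041) in uninduced and -0.97 (SE 0.16, adjusted p = 0.000737) in induced cells. Stc2 changed with induction under control siRNA by -2.44 (SE 0.14, adjusted p = 1.75e-09) on the log2 scale.

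Gdf15, a stress hormone that acts on appetite, measured 297, 264 and 194 CPM with control siRNA and 327, 309 and 338 CPM with the Zfp143 siRNA in uninduced cells. Gdf15 values after induction were 9.63, 9.91 and 9.65 CPM with control siRNA and 23.3, 13.7 and 11.5 CPM with the Zfp143 siRNA. By CPM the knockdown libraries lay above the controls in both conditions, opposite to Fgf21 and Stc2. In TPM the uninduced groups overlapped for Gdf15, at 513, 463 and 251 with control siRNA and 474, 543 and 525 with the Zfp143 siRNA. Gdf15 had a log2 fold change with the siRNA of 0.37 (SE 0.20, adjusted p = 0.179) in uninduced and 0.72 (SE 0.22, adjusted p = 0.0557) in induced cells. Gdf15 changed with induction under control siRNA by -4.69 (SE 0.21, adjusted p = 2.57e-10) on the log2 scale. Gdf15 was called higher in induced knockdown cells without uninduced control replicate 1 (adjusted p = 0.0406) or 3 (0.0197) or induced knockdown replicate 3 (0.0159), and in uninduced knockdown cells without induced knockdown replicate 1 (0.0493). With all libraries it was called higher in induced knockdown cells by DESeq2 (0.0165), with no count filter (0.000648) and with a replicate block (0.0356). Scaling to library size alone (0.0482) and the length offset (0.0493) called it too. It was not called there by limma-voom, with RLE size factors or with only the groups compared. The length offset also called Gdf15 higher in uninduced knockdown cells (0.00652). Induced knockdown replicate 1 was the highest of its group for Gdf15, and without it the log2 fold change in induced cells was 0.38 (adjusted p = 0.243). In TPM the induced knockdown libraries measured 35.2, 31.9 and 27.6 for Gdf15, against 19.98, 21.3 and 24.02 in induced control. Vldlr, a receptor for lipoproteins, measured 4.51, 5.65 and 8.01 CPM with control siRNA and 3.88, 3.37 and 3.67 CPM with the Zfp143 siRNA in uninduced cells. Vldlr values after induction were 0.208, 0.316 and 0.525 CPM with control siRNA and 0.133, 0.248 and 0.651 CPM with the Zfp143 siRNA. Its uninduced knockdown libraries were below the controls, and the induced libraries, with 2 to 13 counts each, overlapped. Vldlr had a log2 fold change with the siRNA of -0.73 (SE 0.32, adjusted p = 0.0975) in uninduced and 0.03 (SE 0.55, adjusted p = 0.988) in induced cells. With the length offset it was called lower in uninduced knockdown cells (-1.10, adjusted p = 0.0127). Vldlr changed with induction under control siRNA by -4.09 (SE 0.44, adjusted p = 5.44e-07) on the log2 scale.

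Other genes of the same pathway came from separate lists. Of 20 cytosolic aminoacyl-tRNA synthetases, which load tRNAs and include ATF4 targets, 19 fell and 1 rose with induction under control siRNA (30.9% and 33.2% of all genes), with a median log2 fold change of -1.81 against 0.03 over all genes. In uninduced knockdown cells 7 fell and 1 rose (17.1% and 15.4% of all genes), with a median of -0.30 against -0.04 over all genes, and in induced knockdown cells 2 fell (5.77% of all genes). Eprs1 fell by 0.93 and Wars1 by 0.66 on the log2 scale with the siRNA in uninduced cells, and Gars1 by 0.52 and Sars1 by 0.42 in induced cells. With induction Wars1 had -2.94 (SE 0.13, adjusted p = 1.41e-10) and Yars1 -2.41 (SE 0.11, adjusted p = 1.12e-10). Of the 17 mitochondrial synthetases, 7 fell with induction (median -0.14), where 30.9% of all genes fell. In uninduced knockdown cells 5 of the 17 fell and 2 rose (median -0.23), where 17.1% and 15.4% of all genes did, and in induced knockdown cells 1 fell, where 5.77% did. Iars2 and Rars2 fell in uninduced knockdown (-0.50 and -0.71), Nars2 in induced knockdown (-0.64), and Yars2 and Mars2 with induction (-1.06 and -1.02).

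Among 17 genes of the eIF2 kinases and eIF2 machinery, 10 fell and 3 rose with induction (median -0.49), against 30.9% and 33.2% of all genes, and 5 fell with the siRNA in uninduced cells (median -0.20), against 17.1%. With the siRNA in induced cells edgeR called 0, where 9.49% of all genes were called, with 4 at an unadjusted p under 0.05, 1 by DESeq2 and 0 by limma-voom. Eif2ak2, the kinase PKR that senses double-stranded RNA, rose with induction (3.16, SE 0.12, adjusted p = 2.24e-11), and Eif2b3, a subunit of the factor that recharges eIF2, fell with induction (-2.07) and with the siRNA in uninduced cells (-0.67). Ppp1r15b, the constitutive counterpart of GADD34, fell in uninduced knockdown (-0.60). Of 10 other genes known as ATF4 targets, 8 fell and 1 rose with induction (median -2.04), 5 fell and 1 rose in uninduced knockdown (median -0.44), and 2 fell in induced knockdown. Of all genes 30.9% fell and 33.2% rose with induction, 17.1% and 15.4% did so in uninduced knockdown, and 5.77% fell in induced knockdown. Gpt2, an alanine aminotransferase, and Herpud1, of endoplasmic reticulum protein degradation, fell with the siRNA in both conditions, with -0.95 and -0.91 in uninduced and -0.45 and -0.48 in induced cells. Bcat1 and Ddit4 fell with induction (-4.28 and -3.24).

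Of 19 other genes of the folate, glycine and methionine cycles, 13 fell and 4 rose with induction (median -0.97), against 30.9% and 33.2% of all genes. With the siRNA 7 fell and 1 rose in uninduced cells, against 17.1% and 15.4%, and 4 rose in induced cells, against 3.73%, among them Ahcy (0.56, SE 0.14, adjusted p = 0.0219). Mat2a, which makes S-adenosylmethionine, and Mtr, methionine synthase, fell in uninduced knockdown by log2 fold changes of -1.22 (SE 0.14, adjusted p = 2.35e-05) and -0.99 (SE 0.15, adjusted p = 0.000184). Shmt1 and Sfxn1 fell with induction (-2.46 and -1.70). Of 15 other plasma membrane amino acid transporters, 12 were tested, and 6 of these rose and 3 fell with induction (median 1.17), against 33.2% and 30.9% of all genes. Slc1a3, a glutamate carrier, rose (4.21, SE 0.16, adjusted p = 1.24e-11) and Slc1a5, a glutamine carrier, fell (-3.68, SE 0.17, adjusted p = 1.34e-10). In uninduced knockdown cells 5 of these 12 fell (17.1% of all genes), with Slc38a1 at -1.03 and Slc7a2 at -1.17. EdgeR called 0 of them with the siRNA in induced cells, where 9.49% of all genes were called. There 4 were lower and 1 higher at an unadjusted p under 0.05, with 2 called by DESeq2 and 1 by limma-voom.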

How the data were processed

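Polyadenylated RNA of C2C12 cells was sequenced in 12 libraries, 3 in each of 4 groups, with a kit that keeps no strand, so a gene and its antisense partner are counted together. Per the submitters' processing notes, reads were trimmed with fastp 1.0.1, aligned with STAR 2.7.11b to GRCm39 and quantified with Salmon. Its version is not given in the sources used here, nor is the annotation release. The deposited estimated count per gene and library was rounded to whole numbers, since up to 7.26% of a library's values were not whole. The deposited score used for levels is TPM, made by the authors and taken per transcript length. The deposited average transcript length per gene and library served only as an offset in an alternative fit. Of 78810 lines, 535 repeat a gene ID and were dropped. Column names have 2 letters swapped for induced knockdown replicates 2 and 3.

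Genes were kept with edgeR's filterByExpr (minimum count 10, minimum total 15), scaled by TMM and fitted in edgeR 4.0.16 (R 4.3.3) with 4 group means on all 12 libraries, which left 8 residual degrees of freedom. Robust quasi-likelihood tests were adjusted by Benjamini-Hochberg over 15030 genes. The fit was checked on simulated counts. Values in every library are given for Atf4, Ddit3, the 2 most changed called genes of each group of genes in both siRNA comparisons and in induction with control siRNA, and every gene called for the difference between siRNA effects. From each further list, the 2 called genes of smallest p are named. One gene that this rule names is not reported here. The listed genes and the other lists were chosen with earlier results of these data known. Alternatives were other scaling, no count filter, DESeq2 1.42.0, limma-voom (limma 3.58.1), the length offset, only the groups compared, a replicate block, and leaving out libraries. FPKM values were not used. Promoter windows come from RefSeq on GRCm38.p6, another build than the counts, and were joined by symbol.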

Additional observations from a re-analysis of the deposited data

Results flagged for a closer look

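The siRNA effect differed between induced and uninduced cells for 12 of the 35 tested genes, by edgeR's quasi-likelihood test of that difference with Benjamini-Hochberg adjustment over all genes. Differences are log2 fold changes in induced minus uninduced cells. Of all genes 10.6% passed with a higher and 11.8% with a lower value after induction. The 5 lower among the 35 genes are near that share. It was lower after induction for Atf3 (-0.93, adjusted p = 0.000818), Atf4 (-0.85, adjusted p = 0.00312), Ppp1r15a (-0.73, adjusted p = 0.00988), Trib3 (-0.69, adjusted p = 0.0392) and Mthfd2 (-0.44, adjusted p = 0.0407). It was higher after induction for Slc1a4 (0.72, adjusted p = 0.00857), Slc7a5 (0.85, adjusted p = 0.0137), Fgf21 (0.73, adjusted p = 0.0182), Slc7a3 (1.74, adjusted p = 0.0207), Aldh1l2 (0.64, adjusted p = 0.0272), Mthfd1l (0.48, adjusted p = 0.0307) and Cth (1.06, adjusted p = 0.0428). The first 5 hold 2 transcription factors, 2 feedback genes and 1 folate enzyme, and the other 7 hold 3 transporters, 2 folate enzymes, Cth and Fgf21. With scaling to library size alone Ppp1r15a (adjusted p = 0.0552), Trib3 (0.101) and Mthfd2 (0.126) did not pass. Zfp143 itself was lower in uninduced but not detectably lower in induced knockdown cells, and the part of this in the differences was not tested. Groups of 3 libraries were too small for a search for outlying libraries.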

How the results depend on the processing

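In the fit with all libraries 16, 11, 33, 34 and 12 of the genes were called for the siRNA in uninduced cells, the siRNA in induced cells, induction with control siRNA, induction with the Zfp143 siRNA and the difference between siRNA effects. Of all genes 32.5%, 9.49%, 64.1%, 66.1% and 22.5% were called in it. Leaving out 1 library at a time gave 15 to 19, 9 to 15, 33 to 35, 34 to 36 and 6 to 17. Over all genes those fits called 22.5% to 37.2%, 5.83% to 13.0%, 57.7% to 65.7%, 59.0% to 69.4% and 16.2% to 30.6%. Without uninduced control replicate 3 and induced knockdown replicate 1 together, 20 were called for the siRNA in induced cells and 20 for the difference. Of all genes 16.4% and 37.3% were called there. With a replicate block the counts were 18, 13, 33, 35 and 13, within 1.5 times those without it. Whether the numbers pair the libraries is not known, since no label says so. Deviations of same-numbered libraries of different groups correlated from -0.0963 to 0.306 over 18 pairs, and of others from -0.279 to 0.249 over 36. These ranges overlap and cannot decide it. Scaling, filter, tool and length offset left the total called in each comparison within 1.5 times. By direction, scaling to library size alone left 2 of the 5 lower calls of the difference, and the few higher calls of the siRNA comparisons, 1 in uninduced and 0 in induced cells, reached 3 and 2 in some alternatives. Counting each of the 35 genes once per comparison and alternative, 3485 values kept their side of the threshold, 87 gained a call, 67 lost one and 0 changed sign while called. With no filter, and in some fits that left out a library, Cbs was tested too, and wherever it was tested it was called higher with induction under control siRNA. Genes with few counts after induction (Slc7a3, Vldlr, Cbs) are limited by depth.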
